A study of Homo sapiens with 6 samples.

Results

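Centromere and kinetochore genes were examined as a set of 39 genes, chosen by symbol, among the 58825 Ensembl gene identifiers of the count table. All 39 were found in the table and all 39 passed the filter on low counts, so none of them had to be left out. They were compared between SKOV3 cells that had received a negative control siRNA for 48 h (the NC group, n = 3 libraries) and SKOV3 cells transfected with si-EIF5A2, an siRNA against the translation factor gene EIF5A2 (n = 3 libraries). SKOV3 is an established human ovarian cancer cell line, and no other allele or agent is named for either group. The methods list a single siRNA duplex against EIF5A2, so loss of EIF5A2 and other effects of that duplex cannot be told apart. The sources do not say whether the libraries came from separate cultures, and the p-values therefore measure the spread between these libraries, which may be technical.

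The centromere is the part of a chromosome on which the kinetochore, the attachment site for spindle microtubules, is built in mitosis. Its position is marked by nucleosomes that hold the histone H3 variant CENP-A, which a dedicated chaperone machinery replenishes once per cell cycle. On this chromatin sits an inner network of CENP proteins, and on that the outer kinetochore, which binds microtubules and recruits the spindle checkpoint. Many of these genes are transcribed periodically, with their highest mRNA levels in late S, G2 and M phase. The genes fell into 6 role groups, which were CENP-A and its deposition (5 genes), the constitutive centromere network (15), the KMN network of the outer kinetochore (10), the RZZ complex with its partner Spindly (4), the SKA complex (3), and CENP-E with CENP-F (2).

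The promoter stretches of 5 of these genes are shown because the genes differed in response while sharing short promoter motifs. They are reference sequence from RefSeq (GRCh38.p14), each the longest run within the 250 bases before the transcription start that holds no annotated exon, written 5′ to 3′ on the strand of the gene. Capitals mark matches, on either strand, to the CHR motif of genes expressed in G2 and M phase (TTTGAA or TTTAAA), the CCAAT box (CCAAT) and an E2F-type motif (TTCCCGC or TTGGCGC or TTCGCGC). SPC24, HJURP and CENPF were downregulated, CENPX was not called, and ZW10 was upregulated.
SPC24, chr19:11155809-11156032, minus strand: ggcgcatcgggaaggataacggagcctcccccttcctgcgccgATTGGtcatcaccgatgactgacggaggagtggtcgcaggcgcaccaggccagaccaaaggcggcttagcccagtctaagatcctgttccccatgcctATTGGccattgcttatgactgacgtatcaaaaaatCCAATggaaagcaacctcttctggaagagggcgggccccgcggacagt
HJURP, chr2:233854567-233854785, minus strand: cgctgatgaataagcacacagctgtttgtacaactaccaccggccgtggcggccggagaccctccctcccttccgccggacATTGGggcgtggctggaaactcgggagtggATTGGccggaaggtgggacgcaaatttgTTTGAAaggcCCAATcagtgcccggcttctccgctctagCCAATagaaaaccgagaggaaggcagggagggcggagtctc
CENPF, chr1:214602945-214603194, plus strand: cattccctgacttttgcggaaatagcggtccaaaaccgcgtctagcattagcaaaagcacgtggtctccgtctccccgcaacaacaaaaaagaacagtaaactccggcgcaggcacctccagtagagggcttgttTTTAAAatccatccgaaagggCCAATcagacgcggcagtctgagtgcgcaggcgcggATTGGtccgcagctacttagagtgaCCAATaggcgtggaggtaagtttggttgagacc
CENPX, chr17:82022919-82023128, minus strand: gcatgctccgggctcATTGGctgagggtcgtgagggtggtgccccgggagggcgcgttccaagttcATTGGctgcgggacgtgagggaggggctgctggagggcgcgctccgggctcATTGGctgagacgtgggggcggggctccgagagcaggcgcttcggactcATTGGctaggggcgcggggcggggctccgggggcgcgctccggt
ZW10, chr11:113773812-113773942, minus strand: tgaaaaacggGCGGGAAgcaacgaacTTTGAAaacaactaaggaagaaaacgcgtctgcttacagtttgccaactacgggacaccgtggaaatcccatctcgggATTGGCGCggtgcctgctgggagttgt
The HJURP stretch holds 4 CCAAT boxes around 1 CHR, and the CENPF stretch 3 CCAAT boxes and 1 CHR. The SPC24 stretch shows 3 CCAAT boxes and no CHR. CENPX, with 4 CCAAT boxes and no CHR in its stretch, was not called. The 5 stretches are chosen examples, and the part of these motifs in the responses was not tested. Counts over the full promoter windows are given below. In ZW10 the last capital run is a CCAAT box (reverse complement) that overlaps an E2F-type match.

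The 6 libraries held between 46900204 and 74142267 estimated counts. Low values in the table piled up at multiples of about 3.69 counts, so that this many counts stand for 1 fragment. Levels are given as CPM (the counts of a gene relative to the same fixed total in every library, with TMM scaling). The term "called" stands for a change of more than 1.5-fold with an adjusted p below 0.05 (edgeR, quasi-likelihood test, Benjamini-Hochberg adjustment over the 16208 genes tested). The epithelial marker genes KRT8 and KRT18 stood at 297 CPM or above in every library. The ovarian lineage gene PAX8 stood at 57.1 CPM or above. Of the other markers on the same list, KRT7 averaged 382 and ERBB2 45.9 CPM in NC. KRT19 (3.22 CPM in NC), WT1 (2.36), EPCAM (1.55) and CDH1 (0.663) were low, and MUC16 had 0 counts in all 6 libraries. The leukocyte genes PTPRC and CD3E also had 0 counts in all 6. Of 9 epithelial markers tested, 3 were called lower (KRT8, KRT7 and PAX8). The siRNA target EIF5A2 was at 29.1 ± 1.15 CPM in NC and at 3.69 ± 0.817 CPM in si-EIF5A2 libraries (SD, n = 3 per group), with a fitted log2 fold change of -2.98 (edgeR adjusted p = 1.6e-05).

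Most centromere and kinetochore genes were downregulated after EIF5A2 knockdown. Of the 39 genes, 28 were called lower, 1 was called higher (ZW10) and 10 were not called, whereas 13.6% of all genes tested were called lower and 11.1% higher (24.6% in either direction). The median log2 fold change of the 39 genes was -1.46, against -0.01 over all genes tested. A fall of at least 2-fold was fitted for 25 of the 39 genes (12.2% of all genes tested), of at least 4-fold for 14 (3.46%), and of at least 8-fold for 5 (1.12%), namely SPC24, OIP5, HJURP, NDC80 and NUF2. There was no overlap between the groups in 34 of the 39 genes (51.2% of all genes tested), and in 32 of these every si-EIF5A2 library lay below every NC library (26.5% of all genes tested). These are bulk libraries, in which fewer cells in G2 or M phase and less RNA per cell cannot be told apart.

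**Figure D1:**
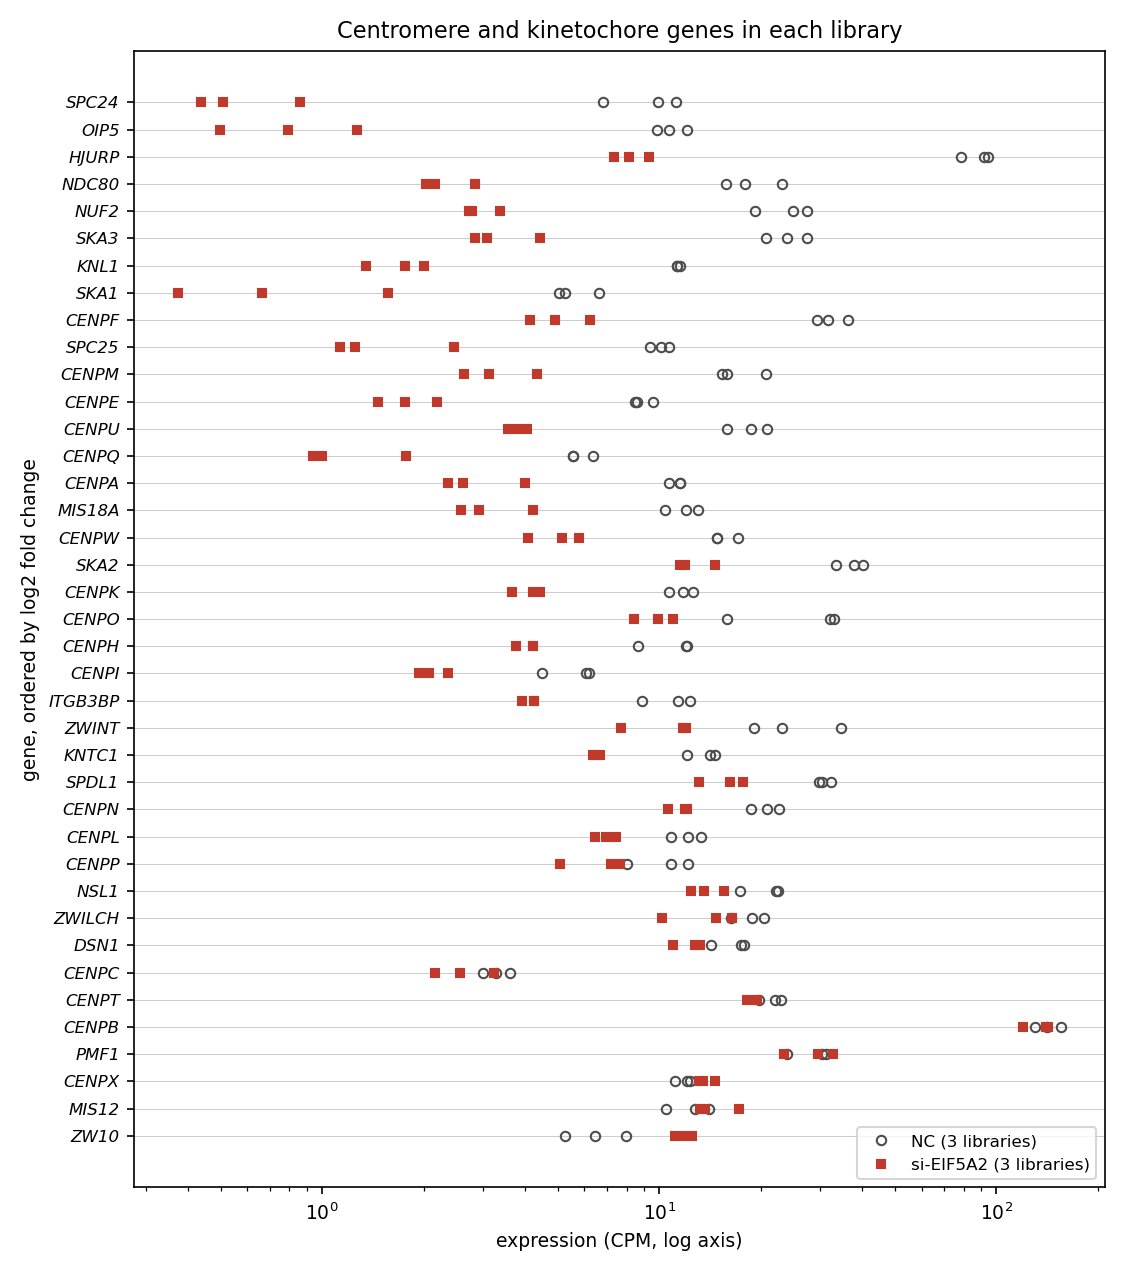
Level of each of the 39 genes in each library, in CPM on a log axis, with open circles for the 3 NC libraries and filled squares for the 3 si-EIF5A2 libraries; genes are ordered from the lowest to the highest log2 fold change. The groups are far apart at the top (SPC24, OIP5, HJURP) and overlap or touch near the bottom, down to ZW10, where the si-EIF5A2 libraries are the higher ones.

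Other genes of the cell division program moved in the same direction. Of 48 genes that mark cells in G2 and M phase, 44 were called lower and 0 higher. Any of the 39 genes had been left out of this list and of the S phase list below. The median log2 fold change of the 48 genes was -2.38. Their summed level was 5020 to 5330 CPM in NC and 1730 to 1920 CPM in si-EIF5A2 libraries. Of 41 S phase marker genes, 34 were called lower and 0 higher (median -1.65). The part of these cell cycle genes, or of a change in cell cycle distribution, in the results below was not tested.

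In the group of CENP-A and its deposition, 4 of 5 genes were called lower, with a median log2 fold change of -1.91. HJURP, the chaperone that carries new CENP-A to centromeres (ENSG00000123485, chromosome 2 from 233833416 to 233854566, minus strand, GRCh38), had 78.6, 91.6 and 94.5 CPM in the NC libraries and 8.16, 9.35 and 7.36 CPM in the si-EIF5A2 libraries. The lowest NC library was thus far above the highest si-EIF5A2 library. The log2 fold change was -3.41 (standard error 0.13, edgeR adjusted p = 4.8e-06), the lowest adjusted p of the 39 genes. OIP5, also known as MIS18B, is a subunit of the complex that prepares centromeres for new CENP-A. It was measured at 9.85, 10.7 and 12.1 CPM in NC and at 1.27, 0.498 and 0.792 CPM in si-EIF5A2 libraries, which gave a log2 fold change of -3.67 (standard error 0.33, edgeR adjusted p = 0.000113). Here too every si-EIF5A2 library lay below every NC library. The si-EIF5A2 values of OIP5 rested on only 65, 26 and 38 estimated counts.

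CENPA, the histone variant itself, had 11.5, 10.7 and 11.5 CPM in NC and 3.99, 2.61 and 2.36 CPM in si-EIF5A2 libraries (log2 fold change -1.91, standard error 0.22, edgeR adjusted p = 0.000331). MIS18A, the partner of OIP5, was called lower with a log2 fold change of -1.86 (edgeR adjusted p = 0.000356). Chaperone and cargo were also compared within libraries. The log2 ratio of HJURP to CENPA was 2.77, 3.10 and 3.04 in NC and 1.03, 1.84 and 1.64 in si-EIF5A2 libraries. The groups did not overlap in this ratio, which gives an exact permutation p of 0.10 (2-sided), the smallest that 3 against 3 libraries allow, and 0.109 when adjusted over the 12 gene pairs compared. The pairs were chosen after the counts had been seen. Among the 12 pairs, SKA1 to SKA2 was the one in which the groups overlapped (exact permutation p = 0.20, adjusted p = 0.200). The share of other gene pairs that would separate was not computed, so a ratio without overlap is only described here.

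CENPB, which binds a DNA motif of centromeric satellite repeats, was the one gene of this group without a call. Its levels were 155, 141 and 130 CPM in NC and 120, 142 and 140 CPM in si-EIF5A2 libraries, so the groups overlapped. The log2 fold change was -0.08, with an approximate 95% interval from -0.31 to 0.15 (edgeR adjusted p = 0.57). OIP5 shares 38.03% of its exon bases with OIP5-AS1 on the opposite strand, and CENPA shares 6.96% with SLC35F6 on the same strand. OIP5-AS1 was at 5.72 CPM in NC replicate 3 and between 49.6 and 73.2 CPM in the other 5 libraries, while OIP5 in NC replicate 3 was close to the other NC libraries. Whether the libraries kept strand is not given in the sources used here.

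In the constitutive centromere network, the inner layer that stays on CENP-A chromatin throughout the cell cycle, 11 of 15 genes were called lower, 0 higher and 4 were not called. The median log2 fold change was -1.40, and values ran from -2.36 (CENPM) to 0.21 (CENPX). CENPU, a subunit of the CENP-O/P/Q/R/U module that also docks Polo-like kinase 1, had 15.9, 20.9 and 18.7 CPM in NC and 3.56, 4.04 and 3.82 CPM in si-EIF5A2 libraries (log2 fold change -2.28, standard error 0.15, edgeR adjusted p = 2.26e-05). CENPM had 15.3, 15.9 and 20.7 CPM in NC and 2.64, 4.33 and 3.13 CPM in si-EIF5A2 libraries (log2 fold change -2.36, standard error 0.22, edgeR adjusted p = 0.000133). CENPM belongs to the CENP-H/I/K/M module, and CENPK of the same module had 11.8, 12.6 and 10.7 CPM in NC and 4.42, 4.21 and 3.65 CPM in si-EIF5A2 libraries (log2 fold change -1.51, edgeR adjusted p = 0.000155). None of these 3 genes had overlapping groups.

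The modules of this network differed in how many subunits were called. In the CENP-H/I/K/M module all 4 genes were called lower, between -2.36 and -1.40, with CENPH at -1.43 and CENPI at -1.40. In the CENP-O/P/Q/R/U module 4 of 5 were called lower, with CENPQ at -2.23, CENPO at -1.46 and ITGB3BP, which encodes CENP-R, at -1.39. CENPO varied most in NC among the network genes, at 15.9, 32.0 and 32.9 CPM, and stood at 8.39, 9.92 and 11.0 CPM in si-EIF5A2 libraries. CENPL and CENPN, the pair that reads CENP-A nucleosomes together with CENP-C, were called lower with smaller values of -0.80 and -0.84.

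The 4 network genes without a call were CENPP, CENPC, CENPT and CENPX. CENPP narrowly missed the threshold (log2 fold change -0.64, edgeR adjusted p = 0.0511, and 0.0287 to 0.154 across the alternatives), and it shares 37.97% of its exon bases with IPPK on the opposite strand, a gene that rose from 14.7 ± 1.36 to 30.8 ± 2.95 CPM (SD, n = 3 each). CENPC, the scaffold that links CENP-A nucleosomes to the outer kinetochore, had 3.29, 3.01 and 3.62 CPM in NC and 3.23, 2.57 and 2.17 CPM in si-EIF5A2 libraries, with a log2 fold change of -0.31 and an approximate 95% interval from -0.82 to 0.20. CENPT, the other link to the outer kinetochore, had a log2 fold change of -0.19 (interval -0.43 to 0.05). CENPX, a histone-fold protein that also works with the Fanconi anemia factor FANCM, had 0.21 (interval -0.05 to 0.48). The intervals of CENPT and CENPX did not reach the 1.5-fold limit, whereas that of CENPC did.

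CENP-T, CENP-W and CENP-X assemble into 1 histone-fold complex together with CENP-S, of which only CENPW was called. CENPW had 14.8, 14.8 and 17.1 CPM in NC and 4.09, 5.15 and 5.77 CPM in si-EIF5A2 libraries, which gave a log2 fold change of -1.64 (standard error 0.16, edgeR adjusted p = 0.000183). Within each library, the log2 ratio of CENPW to CENPT was -0.43, -0.63 and -0.37 in NC and -2.15, -1.92 and -1.73 in si-EIF5A2 libraries. The difference of -1.46 between the group means was larger than the spread in either group (exact permutation p = 0.10, the smallest possible, adjusted p = 0.109 over 12 pairs). CENPW had been called lower without overlap and CENPT had not been called. The pair was chosen after the counts had been seen, and its test adds nothing to these calls.

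**Figure D2:**
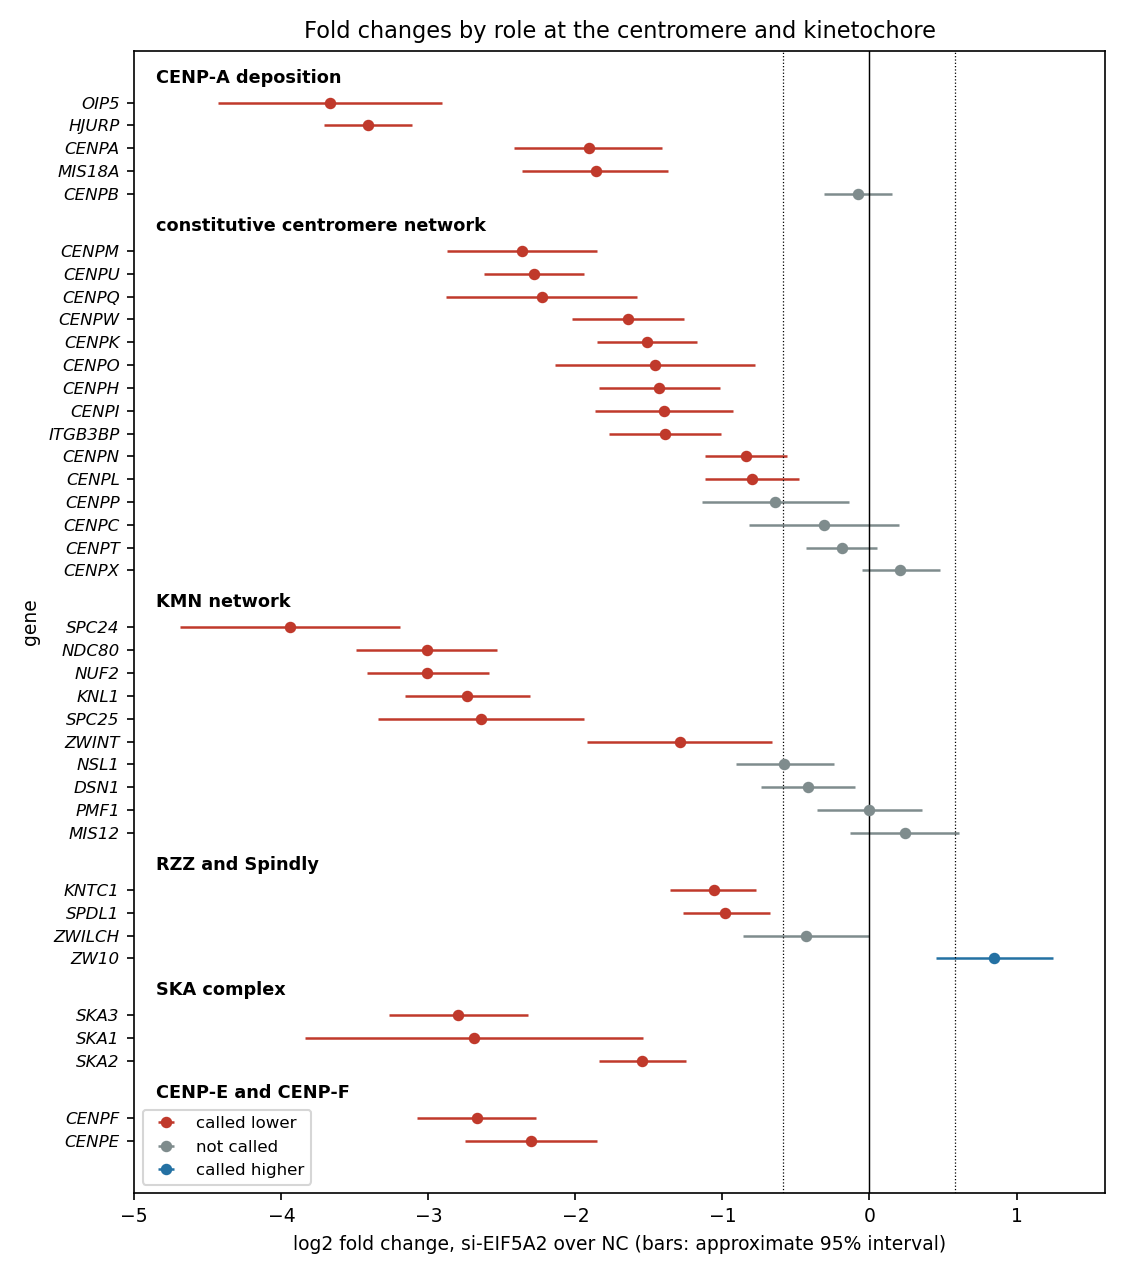
Log2 fold change (si-EIF5A2 over NC) of each gene, grouped by role, with bars for the approximate 95% interval, colors for the call, and dotted lines at the 1.5-fold limits. The NDC80 complex genes and KNL1 lie between -3.94 and -2.64 while the 4 MIS12 complex genes lie between -0.58 and 0.24, and ZW10 is the single gene called higher.

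The KMN network, the microtubule-binding core of the outer kinetochore, was split between its complexes. Of its 10 genes, 6 were called lower, 0 higher and 4 were not called. NUF2, a subunit of the NDC80 complex that contacts microtubules, had 19.2, 24.9 and 27.4 CPM in NC and 2.78, 3.37 and 2.73 CPM in si-EIF5A2 libraries (log2 fold change -3.01, standard error 0.18, edgeR adjusted p = 1.52e-05). NDC80 had 15.8, 17.9 and 23.2 CPM in NC and 2.84, 2.16 and 2.04 CPM in si-EIF5A2 libraries, also a log2 fold change of -3.01 (standard error 0.21, edgeR adjusted p = 2.92e-05). These partners, which form the microtubule-binding end of the complex, thus had the same fitted change.

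SPC24 and SPC25 form the opposite end of the NDC80 complex, which docks on the kinetochore. SPC24 had the largest fall of the 39 genes, from 11.2, 6.79 and 9.89 CPM in NC to 0.509, 0.862 and 0.438 CPM in si-EIF5A2 libraries (log2 fold change -3.94, standard error 0.32, edgeR adjusted p = 7.2e-05). Its si-EIF5A2 values rested on only 26, 45 and 21 estimated counts, so the size of this fall is imprecise. SPC25 had 10.1, 10.7 and 9.36 CPM in NC and 1.13, 1.25 and 2.46 CPM in si-EIF5A2 libraries, which gave a log2 fold change of -2.64 (standard error 0.30). All 4 genes of the complex were therefore called lower, and none had overlapping groups. Summed over the complex, the level was 56.3, 60.3 and 69.8 CPM in NC and 7.26, 7.64 and 7.67 CPM in si-EIF5A2 libraries.

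The MIS12 complex, the adaptor on which the NDC80 complex sits, had 0 of 4 genes called. MIS12 had 14.0, 12.8 and 10.5 CPM in NC and 13.2, 17.2 and 13.7 CPM in si-EIF5A2 libraries, so the groups overlapped (log2 fold change 0.24, approximate 95% interval -0.13 to 0.61). PMF1 had 31.3, 23.9 and 30.4 CPM in NC and 23.4, 32.7 and 29.5 CPM in si-EIF5A2 libraries, with an interval from -0.36 to 0.36. NSL1 and DSN1 passed the adjusted p (0.0155 and 0.0444, edgeR) but not the 1.5-fold limit, with log2 fold changes of -0.58 and -0.42. The summed level of the complex was 81.8, 71.9 and 80.9 CPM in NC and 65.0, 73.3 and 70.1 CPM in si-EIF5A2 libraries, and here the groups overlapped.

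The 2 complexes were set against each other within libraries, through a pair of their subunits chosen after the counts had been seen. The log2 ratio of NDC80 to MIS12 was 0.17, 0.48 and 1.15 in NC and -2.22, -2.99 and -2.75 in si-EIF5A2 libraries. That of SPC24 to PMF1 was -1.49, -1.82 and -1.62 in NC and -5.52, -5.24 and -6.08 in si-EIF5A2 libraries. In both ratios the gap between the groups exceeded the spread within them (exact permutation p = 0.10 for each, the smallest possible, adjusted p = 0.109 over 12 pairs). NDC80 and SPC24 had been called lower without overlap, and MIS12 and PMF1 had not been called. NSL1 and DSN1, which fell without overlap of the groups, were not used. The tests of these ratios therefore add nothing to the calls of the single genes. PMF1 shares 23.3% of its exon bases with the readthrough gene PMF1-BGLAP on the same strand, and how the counts were divided between them could change its value. PMF1-BGLAP had 12.3, 11.6 and 14.5 CPM in NC and 6.71, 4.0 and 0.813 CPM in si-EIF5A2 libraries (edgeR adjusted p = 0.119).

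**Figure D3:**
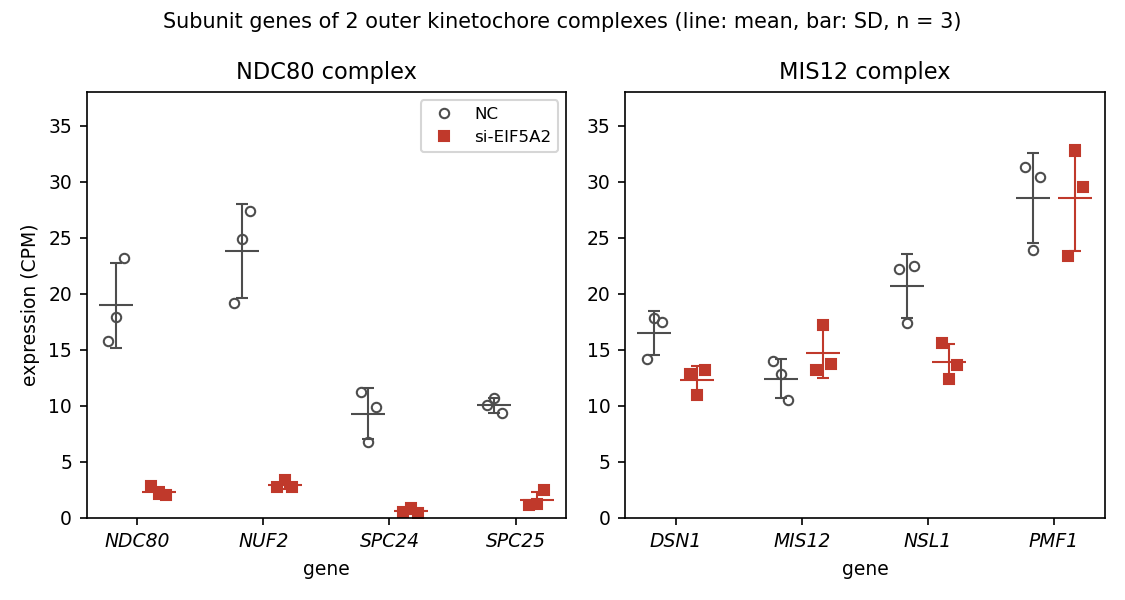
Level in CPM of the 4 subunit genes of the NDC80 complex (left) and of the MIS12 complex (right) in each NC (open circles) and si-EIF5A2 library (filled squares), with lines for the mean and bars for the SD of 3 libraries. Every si-EIF5A2 point of the NDC80 complex lies at or below 3.37 CPM, whereas the points of MIS12 and PMF1 overlap between the groups.

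KNL1, the scaffold that recruits the checkpoint kinase BUB1, followed the NDC80 complex. It had 11.3, 11.3 and 11.5 CPM in NC and 1.35, 1.76 and 2.0 CPM in si-EIF5A2 libraries (log2 fold change -2.74, standard error 0.18, edgeR adjusted p = 2.55e-05). Its partner ZWINT, which helps to bring the RZZ complex to kinetochores, had 19.1, 23.2 and 34.7 CPM in NC and 12, 11.8 and 7.71 CPM in si-EIF5A2 libraries. ZWINT was called lower at -1.29 (standard error 0.27, edgeR adjusted p = 0.00847), the highest adjusted p among the 28 genes called lower.

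The RZZ complex and Spindly, which bring the motor dynein to kinetochores and help to control the checkpoint, gave mixed results. KNTC1, the ROD subunit, had 12.1, 14.1 and 14.6 CPM in NC and 6.69, 6.38 and 6.48 CPM in si-EIF5A2 libraries (log2 fold change -1.06, standard error 0.13, edgeR adjusted p = 0.000465). SPDL1, which encodes Spindly, had 30.3, 29.8 and 32.4 CPM in NC and 13.1, 17.7 and 16.2 CPM in si-EIF5A2 libraries (log2 fold change -0.98, edgeR adjusted p = 0.000676). Both were called lower. ZW10 was the single gene of the 39 called higher, with 5.26, 6.44 and 7.95 CPM in NC and 12.5, 11.1 and 11.7 CPM in si-EIF5A2 libraries (log2 fold change 0.85, standard error 0.17, edgeR adjusted p = 0.00611). ZW10 also acts outside mitosis, in membrane traffic between the Golgi and the endoplasmic reticulum. ZWILCH had overlapping groups and was not called (log2 fold change -0.43, approximate 95% interval -0.86 to 0.00).

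Subunits of the RZZ complex thus moved in opposite directions. The log2 ratio of KNTC1 to ZW10 was 1.21, 1.13 and 0.88 in NC and -0.91, -0.80 and -0.86 in si-EIF5A2 libraries. The group means differed by -1.93, against SDs of 0.17 and 0.05 (exact permutation p = 0.10, the smallest possible, adjusted p = 0.109 over 12 pairs). KNTC1 fell and ZW10 rose without overlap of the groups, so their ratio had to separate. The pair was chosen after the counts had been seen, and its test adds nothing to the calls of the 2 genes.

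All 3 genes of the SKA complex, which couples kinetochores to shrinking microtubule ends, were called lower. SKA3 had 23.9, 20.7 and 27.4 CPM in NC and 4.42, 3.08 and 2.84 CPM in si-EIF5A2 libraries (log2 fold change -2.80, standard error 0.20, edgeR adjusted p = 3.81e-05). SKA2 had 33.5, 37.7 and 40.1 CPM in NC and 11.5, 11.9 and 14.6 CPM in si-EIF5A2 libraries (log2 fold change -1.55, standard error 0.13, edgeR adjusted p = 7.16e-05). SKA1 was the least precise of the 39 genes, with 5.04, 6.61 and 5.25 CPM in NC and 0.665, 1.57 and 0.375 CPM in si-EIF5A2 libraries. The fitted log2 fold change was -2.69 (standard error 0.49, edgeR adjusted p = 0.00452), and -3.43 without si-EIF5A2 replicate 2. In si-EIF5A2 replicate 3 it rested on 18 estimated counts, the lowest count of any of the 39 genes in any library.

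The remaining outer kinetochore genes were also called lower. CENPF, a large protein of the fibrous corona that accumulates in G2, had 36.2, 29.4 and 31.7 CPM in NC and 4.13, 4.92 and 6.23 CPM in si-EIF5A2 libraries (log2 fold change -2.67, standard error 0.18, edgeR adjusted p = 2.35e-05). CENPE, the kinesin that moves chromosomes to the spindle equator, had 8.61, 8.48 and 9.59 CPM in NC and 1.47, 1.76 and 2.19 CPM in si-EIF5A2 libraries (log2 fold change -2.30, standard error 0.19, edgeR adjusted p = 8.04e-05). In neither gene did the groups overlap.

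For a comparison of levels between genes, CPM was divided by exon length, taken as all bases covered by any annotated exon of the gene. This can exceed the length of the transcripts expressed, by amounts that differ between genes. The order of genes per kb is therefore approximate. The ratios and summed levels given above are of CPM without that division, and they are compared only between the groups. CENPB was the most abundant per kb in both groups, and in si-EIF5A2 libraries it stood at 47.2 ± 4.36 CPM per kb of exons (SD, n = 3). The other 38 genes lay between 0.384 and 23.1 CPM per kb in NC and between 0.166 and 11.3 in si-EIF5A2 libraries, and the medians of all 39 genes were 5.06 and 1.5. HJURP, next in NC at 23.1 ± 2.22 CPM per kb, was at 2.17 ± 0.262 CPM per kb after knockdown, below the uncalled PMF1 (11.3 ± 1.87) and CENPX (8.96 ± 0.498). KNL1 was the least abundant after knockdown (0.166 ± 0.0322), and CENPE (0.191 ± 0.0384) and SPC24 (0.212 ± 0.0801) did not differ from it beyond their spread. The ratio between the highest and the lowest gene widened from 130 to 284. The NC level per kb and the log2 fold change were nearly unrelated across the 39 genes (Spearman rho -0.10), a description over genes that share the same 6 libraries.

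**Figure D4:**
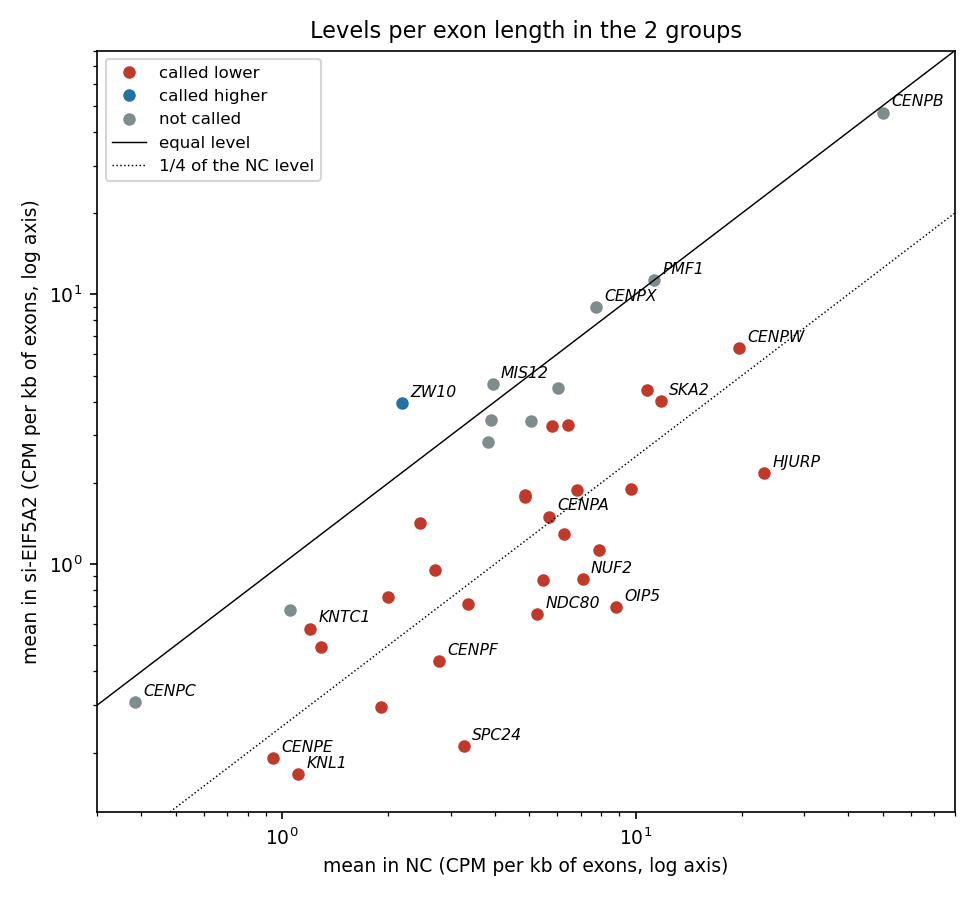
Mean level of each gene in si-EIF5A2 against NC libraries, in CPM per kb of exons on log axes, with colors for the call and lines at an equal level and at 1/4 of the NC level. CENPB and PMF1 lie on or next to the equal-level line, and HJURP, OIP5 and SPC24 lie far below it. The lowest NC level was 0.384 among the genes not called and 0.942 among those called lower.

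Promoter windows were given by RefSeq for 33 of the 39 genes, each from 250 bases before to 50 bases after the transcription start. Where a symbol had several starts, the most upstream RefSeq start was used. For CENPA, SPC25 and CENPI this start lay well inside the gene as annotated by GENCODE. The counts below depend on this choice. A CHR was present in 13 of the 22 windows of genes called lower (59.1%), in 1 of 10 of the genes not called (CENPC), and in 15.8% of the windows of all genes tested. The CCAAT box was present in 14 of the 22 (63.6%), in 5 of 10 and in 36.6%, respectively, and the E2F-type motif in 10 of the 22 (45.5%), in 3 of 10 and in 17.5%. In 11 of the 22 genes called lower a CHR began between 30 bases before and 40 bases after the start, against 0 of 10 genes not called and 3.46% of the windows of all genes tested, but these bounds were set after the positions had been seen. The window of ZW10 held all 3 motifs, with its CHR 224 bases before the start. Over all 27305 promoter windows, one for each symbol, the shares were 24.4% for the CHR, 35.7% for the CCAAT box and 11.1% for the E2F-type motif. A match of so few letters is a description of the sequence, and no binding was measured.

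**Figure D5:**
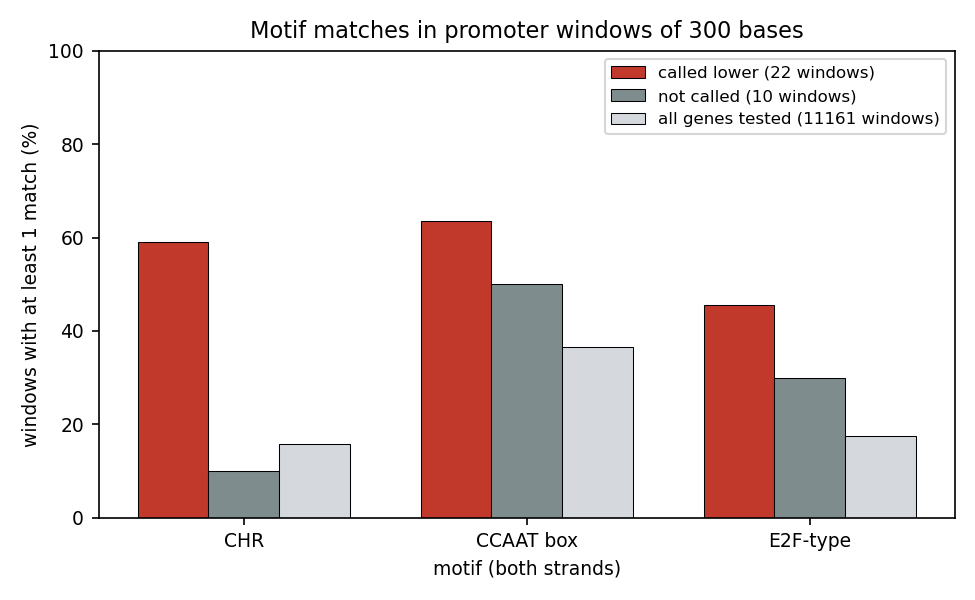
Share of promoter windows with at least 1 match to each motif, in percent, for the 22 genes called lower, the 10 genes not called and the 11161 windows of genes tested. The CHR bars differ most, at 59.1% of the genes called lower, 1 of 10 genes not called and 15.8% of genes tested.

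Genes that work beside these proteins were counted from 2 further lists. Of 16 genes of the inner centromere and the spindle checkpoint, 13 were called lower and 0 higher, with a median log2 fold change of -2.53, and some of them are also among the 48 G2 and M phase genes above. The largest falls were those of TRIP13, which remodels the checkpoint protein MAD2 (-3.73), AURKB, the kinase of the chromosomal passenger complex (-3.37), its partner CDCA8 (-3.20) and PLK1 (-3.10). BUB3, MAD1L1 and MAD2L1BP were not called. Of 23 measured genes with other roles at centromeres and kinetochores, 7 were called lower and 4 higher, with a median of -0.19. CENPS, the partner of CENPX, was not called (0.44, approximate 95% interval -0.07 to 0.94), and it shares 64.8% of its exon bases with the readthrough gene CENPS-CORT on the same strand.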

How the data were processed

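RNA from 6 SKOV3 libraries was sequenced in paired ends. The values deposited by the authors are estimated counts per gene, which are whole numbers and not normalized, so rounding them changed nothing. The methods name StringTie and ballgown for expression levels. Per the labels, the submitters' processing notes name Bowtie 0.12.2 with the builds mm8 and mm9, which are mouse builds, although the identifiers are human. The human build and annotation are not given in the sources used here. No column was left unmatched, and no replicates were pooled.

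Symbols came from a table of gene names. Positions, exon lengths and exon overlaps came from GENCODE release 29 (GRCh38), which held 58552 of the 58825 identifiers. The counts were analyzed with edgeR 4.0.16 in R 4.3.3 (filterByExpr, TMM, robust dispersions, quasi-likelihood test, condition as the only term) on all 6 libraries, with Benjamini-Hochberg adjustment over 16208 genes. The standard error of a log2 fold change was taken from the square root of its F statistic, and intervals use the t distribution. The limit that 0 counts allow is 3 fragments (0.149 to 0.236 CPM), for counting error only. Replicates of a group correlated with r of 0.964 to 0.974 in log2 CPM. The steps were tested on simulated counts.

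The genes and lists were chosen with earlier results of these data known. Values per library are given for the 3 genes with the lowest adjusted p in each role group, each gene called higher, and further genes chosen after their values were seen. Alternatives were DESeq2 1.42.0, other normalizations and filters, counts divided by their step, a replicate block, 2 other thresholds and leaving out each library.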

Additional observations from a re-analysis of the deposited data

How the results depend on the processing

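The number of centromere and kinetochore genes called lower was 28 and lay between 25 and 30 over the 16 alternatives, and the median log2 fold change of all 39 genes, -1.46, was lowest without NC replicate 1 (-1.58) and highest when NC replicate 2 was left out (-1.36). A threshold named in the methods (a change of more than 2-fold at a raw p below 0.05) moved the count over all genes from 3992 to 2370 and the number of the 39 genes called higher from 1 to 0, since ZW10, like CENPL, CENPN and SPDL1, changed by less than 2-fold. With the adjusted p alone 5974 genes passed, DSN1 and NSL1 among them. CENPP passed under 7 of the alternatives, DESeq2 included, and NSL1 under 6. PMF1 changed its sign around 0, with 0.01 under RLE normalization and with library size only, and -0.11 to 0.12 with 1 library left out. Same-numbered libraries did not deviate together (r of -0.0244, 0.0052 and -0.0027). With 3 libraries per group such values cannot settle whether the numbers pair the libraries. With a replicate block the counts were 3731 over all genes, 28 lower and 1 higher, the median was -1.41 and EIF5A2 had -3.00. SKA1, with 18 counts in 1 library, had the largest standard error of the 39 genes (0.49).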

Other observations

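The 23 measured genes with other roles at centromeres and kinetochores held genes called in both directions, 7 lower and 4 higher, against 13.6% and 11.1% of all genes tested. The 4 called higher were NDEL1, CLIP1, PAFAH1B1 and NUDC, all named here after their values were seen. NDEL1, a dynein regulator, rose from 28.4 ± 1.04 to 57.7 ± 5.10 CPM (SD, n = 3 per group), which gave a log2 fold change of 1.02 (edgeR adjusted p = 0.000128). CLIP1, which encodes the plus-end protein CLIP-170, had 0.82, PAFAH1B1, the LIS1 gene, 0.71 and NUDC 0.62. NDE1, the paralog of NDEL1, went the other way, from 36.2 ± 6.19 to 13.6 ± 1.14 CPM (SD, n = 3 per group), with a log2 fold change of -1.41 (edgeR adjusted p = 0.000185). Genes that act on microtubule plus ends were not of 1 direction. The kinesin genes KIF2C (-2.98) and KIF18A (-2.43) and the polymerase gene CKAP5 (-0.81) were called lower, and CLASP1 (0.38) and CLASP2 (-0.28) were not called.

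Among the markers of other cell types, ACTA2, the smooth muscle actin gene, was called higher, from 24.1 ± 1.35 to 64.4 ± 3.32 CPM (SD, n = 3 per group), while 0 of the other 4 markers tested were called. ACTA2 shares 12.8% of its exon bases with FAS on the opposite strand, which had 936 to 2587 counts. Whether the libraries kept strand is not given.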
